A study of Mus musculus with 4 samples.

Results

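The 49 genes described here encode the proteins that bring fatty acids into a cell, build new ones, store them in lipid droplets and burn them in mitochondria, together with 4 transcriptional regulators of these steps. They were chosen by name from the genes of fatty acid handling, without a threshold on their values. Earlier results of these data were known at the time, so the shares of members given below only describe this choice of genes. All 49 were found among the 35869 genes of the tables. The genes were ordered by step, with 7 genes of uptake and activation, 9 of synthesis, 12 of droplet storage and lipolysis, 17 of mitochondrial oxidation and 4 regulators. Acot1, which encodes a cytosolic thioesterase, was counted under mitochondrial oxidation.

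RNA-seq was performed on CD45+ cells, which are immune cells pulled with magnetic beads from the stromal vascular fraction of the epididymal white adipose tissue (eWAT), the fat pad beside the epididymis. The cells came from male WT C57BL/6 mice fed a normal diet (ND, 2 samples) or a high-fat diet (HFD, 2 samples) for 12 weeks, starting at 8 weeks of age. No genotype other than WT was sequenced among these samples, and the diet was the difference between the groups. The number of mice behind each library is not given in the sources used here, so the p-values measure only the spread between these samples, which may be technical.

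Free fatty acids reach a cell from lipoproteins that lipoprotein lipase cuts open, or from neighbouring fat cells, and they are trapped inside by coupling to coenzyme A. The acyl-CoA is then either esterified to triglyceride and stored in droplets coated with perilipins, or carried into mitochondria as a carnitine ester and shortened in a repeated cycle of beta-oxidation. In obese fat, macrophages take up lipid from adipocytes and can fill with droplets, and such cells are known as lipid-associated macrophages.

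The values are TPM, which are read counts divided by gene length and scaled to a common total, so that levels can be compared between genes but only as shares of the RNA of a sample. About 37600000 to 46900000 counted reads lay behind each sample, as estimated from the step size of the TPM of short genes, and a value of 0.0607 to 0.0711 TPM stood for 1 read per kb. A gene was called when its adjusted p (limma, Benjamini-Hochberg over 16849 genes) was under 0.05 and its change was at least 1.5-fold, and it passed the test when the adjusted p alone was under 0.05. Fold changes are HFD minus ND on the log2(TPM + 1) scale, followed by their standard error (SE), and they understate the change of genes with a low TPM.

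The 2 HFD libraries stood apart from each other in part of the transcriptome. A gap of 2-fold or more between them was seen in 1761 genes with the higher value in replicate 1 and in 172 genes with the higher value in replicate 2, out of all genes tested, while 175 genes had such a gap between the ND samples. The summed TPM of 8 male germ cell markers was 2027 and 2059.9 in ND, 7724 in HFD replicate 1 and 2316 in HFD replicate 2. Of the 47 members tested, 1 (Dgat2) differed at least 2-fold between the HFD samples. Leaving out 1 sample leaves its diet with 1 sample, so the spread then comes from the other diet alone. No member call held in all of these fits, while the direction of each called member did. The change of Lpl ran from 2.07 to 2.13, that of Abhd5 from 0.81 to 1.18 and that of G0s2 from -1.57 to -0.94. Ptprc, the gene of CD45, had 54.5 and 59.4 TPM in ND and 55.3 and 53.7 in HFD.

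In the CD45+ cells of HFD-fed mice, 3 of 7 genes of uptake and activation, 4 of 12 of droplet storage and lipolysis and 4 of 17 of mitochondrial oxidation were called higher, and none of 9 genes of fatty acid synthesis was called. The largest increases were those of Lpl, Slc27a1, Plin2 and Hilpda, between 1.64 and 2.10 on the log2 scale. Of the 47 members tested, 11 were called higher (23.4%), where 8.08% of all genes tested were called higher. G0s2, which encodes an inhibitor of triglyceride breakdown, was the only member called lower, where 10.3% of all genes were. The calls in either direction made up 25.5% of the members and 18.4% of all genes.

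By the adjusted p alone, 22 members passed in the higher direction and 2 (Fasn and G0s2) in the lower, which is 51.1% of the members against 27.3% of all genes. The higher direction alone held 46.8% of the members and 13.2% of all genes, and the lower direction 14.1% of all genes. The median log2 fold change was 0.33 over the members and 0.056 over all genes tested. In 39 members (83.0%) both HFD values lay on one side of both ND values, as they did in 66.9% of all genes, and in 31 of these members the HFD values were the higher ones, a direction seen in 34.1% of all genes.

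**Figure D1:**
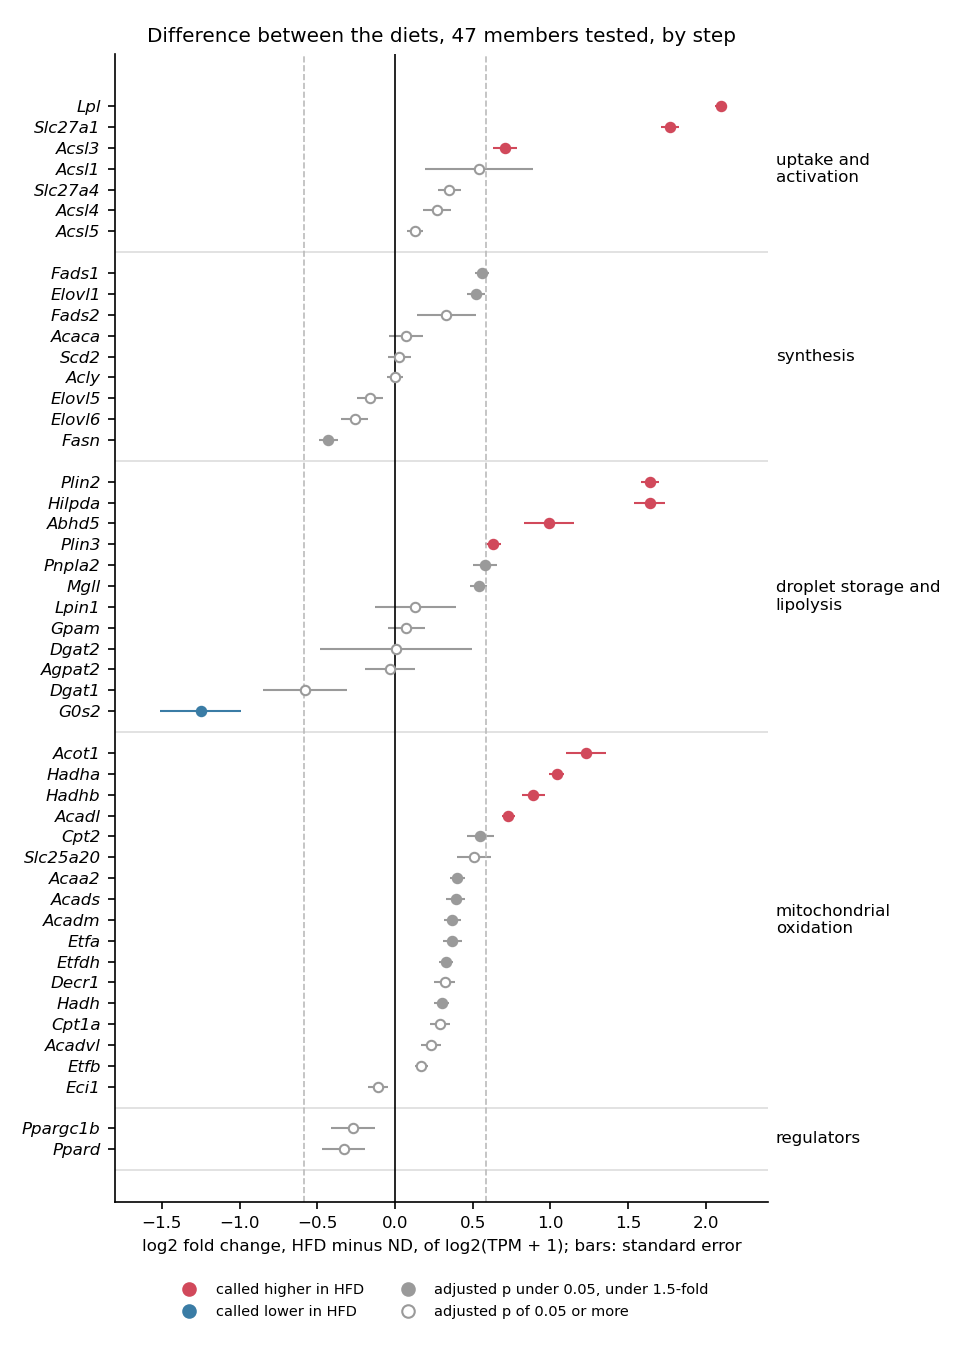
Log2 fold change (HFD minus ND, log2(TPM + 1) scale) of the 47 members tested, ordered by step and then by size, with bars for the SE and dashed lines at 1.5-fold. Red points are the 11 members called higher, the blue point is G0s2 (-1.25), filled grey points passed the adjusted p at under 1.5-fold, and open points did not pass.

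The summed TPM of all members was 3069 and 3179 in the ND samples and 6676 and 6798 in the HFD samples, a 2.16-fold ratio of the means. Without Lpl the sums were 2385 and 2465 in ND and 3677 and 3789 in HFD, a 1.54-fold ratio. In bulk RNA, a change in the number of cells of a type and a change in the RNA of each cell cannot be told apart.

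In all 7 genes of uptake and activation both HFD samples lay above both ND samples, as in 34.1% of all genes. Their median change of 0.54 on the log2 scale is the value of Acsl1, whose HFD samples lay far apart, and it was 0.33 without HFD replicate 1. The summed TPM of the step was 786 and 823 in ND and 3163 in each HFD sample, a ratio of 3.93, and without Lpl it was 102 and 108 in ND and 165 and 155 in HFD, a ratio of 1.52. Called higher were 3 of the 7 genes (Lpl, Slc27a1 and Acsl3), where 8.08% of all genes were, and the other 4 did not pass the test.

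Lpl encodes lipoprotein lipase, which frees fatty acids from the triglycerides of circulating lipoproteins (GRCm38, chr8:68880491-68907448, plus strand). Its TPM was 684.1 and 714.8 in ND and 2998.8 and 3008.2 in HFD, with an estimated 102108 to 508437 reads behind each value. The HFD samples lay within a log2 difference of 0.0045 of each other, and far above ND. The increase was 2.10 (SE 0.038, adjusted p = 0.00378). Lpl held rank 219 by mean TPM among 35869 genes in ND and rank 32 in HFD. Its fold change ranked 159 among the 1361 genes called higher.

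Slc27a1 encodes the fatty acid transport protein FATP1, which couples uptake to activation (chr8:71568882-71587302, plus strand). Its TPM was 11.5 and 11.3 in ND and 41.8 and 40.6 in HFD, a change of 1.77 (SE 0.057, adjusted p = 0.00445). The related transporter Slc27a4 (FATP4) had 29.2 and 32.4 TPM in ND and 39.8 and 38.9 in HFD, and at 0.35 (adjusted p = 0.0518) it did not pass. The ratio of Slc27a4 to Slc27a1, in TPM, was 2.54 and 2.87 in ND and 0.952 and 0.958 in HFD, so that the pair stood at nearly equal levels in HFD.

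The long-chain acyl-CoA synthetases attach coenzyme A to fatty acids. Acsl3, the form found on the endoplasmic reticulum and nascent droplets, had 6.5 and 6.8 TPM in ND and 11.2 and 11.8 in HFD, an increase of 0.71 (SE 0.078, adjusted p = 0.0158). Exons of Acsl3 overlap those of Utp14b on the same strand, which had 7.3 and 7.2 TPM in ND and 9.2 and 7.3 in HFD, and reads in the overlap could have been assigned to either. Acsl1 had 8.5 and 9.0 TPM in ND, while HFD replicate 1 stood at 18.3 and replicate 2 at 9.4. With the HFD samples this far apart, its change of 0.54 (SE 0.35, adjusted p = 0.338) did not pass. Kept as the only HFD sample, replicate 2 gave Acsl1 a change of 0.094, while replicate 1 gave 0.99. These fits hold no spread between HFD samples, so only the sizes are given. Acsl4 (0.27) and Acsl5 (0.13) had higher values in both HFD samples than in both ND samples and did not pass either.

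**Figure D2:**
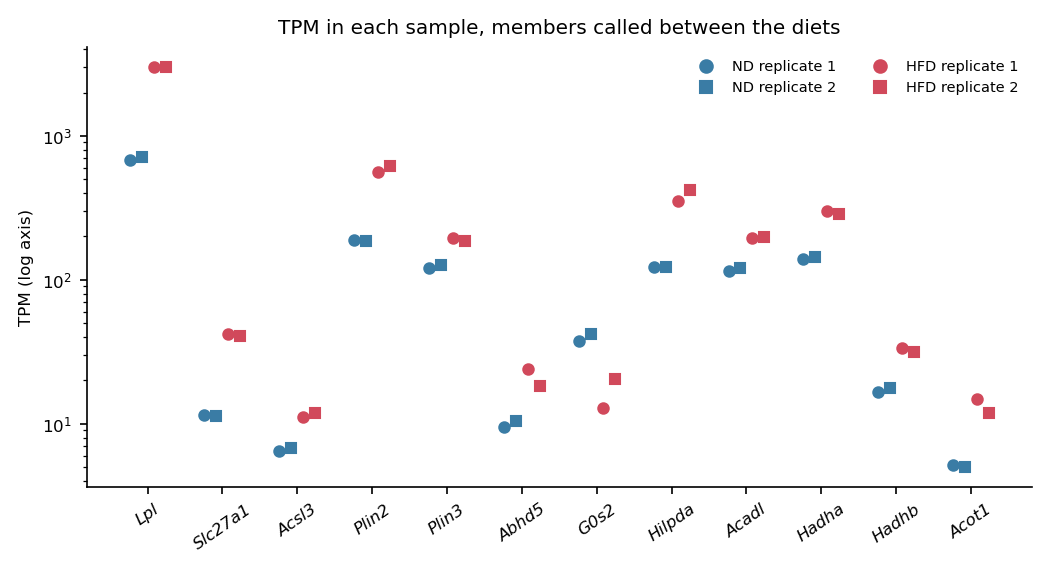
TPM (log axis) of the 12 members called between the diets in each of the 4 samples, with ND in blue, HFD in red, and replicates as circles and squares. The HFD symbols lie above the ND symbols in all of them but G0s2, and Lpl reaches 3008.2 TPM while Acot1 stays at or under 14.8 TPM.

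Synthesis of fatty acids was the step with the smallest change in summed TPM, which was 335 and 359 in ND and 357 and 375 in HFD, a ratio of 1.06. None of the 9 genes was called (limma, with 3 at an unadjusted p under 0.05), where 18.4% of all genes were. The test was passed by 2 in the higher direction and 1 in the lower, or 33.3%, against 27.3% of all genes. The higher direction alone held 22.2%, against 13.2%. The median log2 fold change of the 9 genes was 0.029, and it ran from -0.042 to 0.10 as samples were left out.

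Acly, which makes cytosolic acetyl-CoA from citrate, had 96.9 and 103.0 TPM in ND and 98.5 and 101.3 in HFD. Acaca, the acetyl-CoA carboxylase that commits carbon to fatty acids, was low throughout at 1.8 to 2.2 TPM. Fasn, the fatty acid synthase that assembles palmitate, had 35.1 and 37.7 TPM in ND and 26.7 in each HFD sample, and fell by 0.43 on the log2 scale (SE 0.062, adjusted p = 0.0249). This decrease was smaller than 1.5-fold.

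Of the elongases and desaturases, Elovl1 and Fads1 passed the test, both in the higher direction. Elovl1, which extends saturated acids to very long chains, rose from 35.3 and 33.3 TPM to 48.7 and 50.2, by 0.52 (SE 0.058, adjusted p = 0.0163). Its exons overlap those of Cdc20 on the opposite strand, whose TPM was 25.1 and 25.7 in ND and 49.0 and 32.4 in HFD, and whether strand was used in counting is not given in the sources used here. Fads1, the delta-5 desaturase of polyunsaturated acids, rose from 34.7 and 35.6 TPM to 52.1 and 52.8, by 0.56 (SE 0.048, adjusted p = 0.0106). Fads2 (0.33), Scd2 (0.029), Elovl5 (-0.16) and Elovl6 (-0.26) did not pass.

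Droplet storage and lipolysis held 4 members called higher and 1 called lower out of 12. Among all genes, 8.08% were called higher and 10.3% lower. The summed TPM of the step was 654 and 663 in ND and 1354 and 1445 in HFD. Passing the test in the higher direction were the coat genes Plin2 and Plin3, the lipase genes Pnpla2 and Mgll, and Abhd5 and Hilpda, whose proteins bind the lipase ATGL. G0s2, another partner of ATGL, fell, and none of the 5 genes of triglyceride assembly (Gpam, Agpat2, Lpin1, Dgat1 and Dgat2) passed the test.

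Plin2 encodes perilipin 2, the coat protein of droplets outside adipocytes (chr4:86648386-86670060, minus strand). Its TPM was 189.9 and 186.6 in ND and 562.4 and 615.7 in HFD, an increase of 1.64 (SE 0.060, adjusted p = 0.00449), and by mean TPM it moved from rank 846 to rank 267 of all genes. Plin3, a perilipin that is also found free in the cytosol, had 119.8 and 125.6 TPM in ND and 194.8 and 186.8 in HFD, an increase of 0.63 (SE 0.050, adjusted p = 0.00954). Plin3 fell under the 1.5-fold limit after quantile normalization (0.51) or after rescaling without the 50 highest genes (0.57). The ratio of Plin2 to Plin3, in TPM, was 1.59 and 1.49 in ND and 2.89 and 3.30 in HFD.

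Pnpla2 encodes adipose triglyceride lipase (ATGL), which takes the first fatty acid off a triglyceride, and its activity is set by protein partners. Abhd5 (CGI-58) is its activator, while G0s2 and Hilpda each bind and inhibit it. Pnpla2 had 41.7 TPM in each ND sample and 66.5 and 59.4 in HFD. This increase of 0.58 (SE 0.075, adjusted p = 0.0208) passed the test and lay just under the 1.5-fold limit.

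The TPM of Abhd5 was 9.5 and 10.5 in ND and 23.9 and 18.2 in HFD, an increase of 0.99 (SE 0.16, adjusted p = 0.0318). Without HFD replicate 1 its change was 0.81 and it was no longer called. Hilpda, a small droplet protein known as a target of hypoxia and of fatty acids, rose from 121.8 and 123.4 TPM to 350.3 and 419.0, by 1.64 (SE 0.10, adjusted p = 0.00748). G0s2 went the other way, with 37.8 and 42.3 TPM in ND and 12.8 and 20.4 in HFD, a change of -1.25 (SE 0.26, adjusted p = 0.0470). The diets did not overlap in any of these 3 genes, as in 66.9% of all genes, and G0s2 rested on an estimated 180.4 to 607 reads a sample. Without HFD replicate 1 the change of G0s2 was -0.94 and it was not called, and it was called in 5 of 9 settings that kept all samples and the fold limit of 1.5.

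The inhibitors thus differed in direction. Relative to Pnpla2, in TPM, G0s2 stood at 0.906 and 1.01 in ND and at 0.192 and 0.343 in HFD, while Hilpda stood at 2.92 and 2.96 in ND and at 5.27 and 7.05 in HFD. Abhd5 stood at 0.228 and 0.252 of Pnpla2 in ND and at 0.359 and 0.306 in HFD. Mgll, the monoglyceride lipase that completes lipolysis, rose from 26.7 and 25.8 TPM to 37.9 and 39.1, by 0.54 (SE 0.055, adjusted p = 0.0140).

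**Figure D3:**
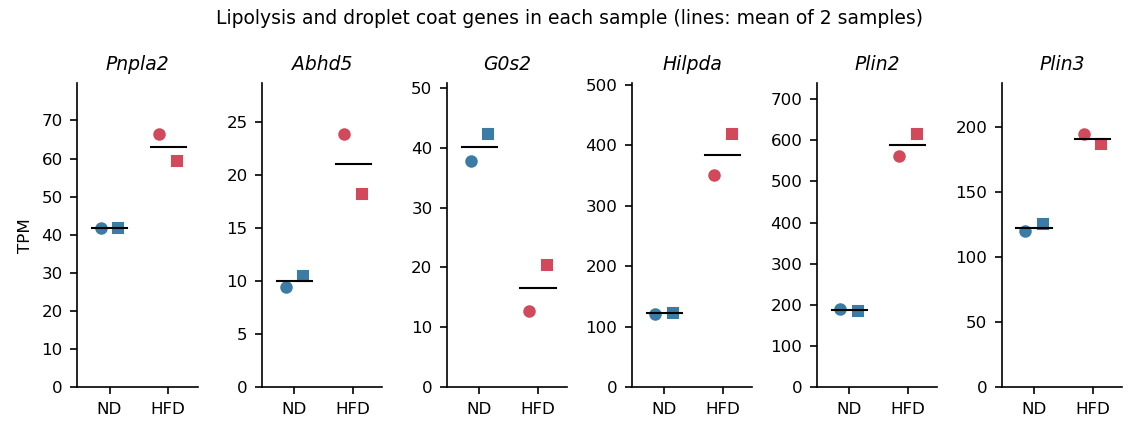
TPM of the lipase gene Pnpla2, its activator Abhd5, its inhibitors G0s2 and Hilpda, and the coat genes Plin2 and Plin3 in each sample, each on its own axis from 0, with a line at the mean of each diet. G0s2 is the one panel with HFD (12.8 and 20.4) below ND (37.8 and 42.3).

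Because the 2 inhibitor genes moved in opposite directions, the bases just upstream of both are shown, read from the RefSeq promoter table for GRCm38.p6 (mm10) up to the outermost transcript start of RefSeq or GENCODE, 5′ to 3′ on the strand of the gene. The stretches are chr6:29272238-29272487 on the plus strand for Hilpda and chr1:193273218-193273438 on the minus strand for G0s2. Capitals mark the GC box GGGCGG on either strand, of which the Hilpda stretch holds 1 and the G0s2 stretch 0. This count depends on where the stretch ends, since the 250 bases before the RefSeq start hold the GC box in both genes. The core GCGTG of hypoxia response elements, on either strand, occurs 1 time in the G0s2 stretch and 0 times in that of Hilpda, and the window before the RefSeq start holds it in both genes. The other core, ACGTG, is found in that window of Hilpda and not in that of G0s2.
Hilpda: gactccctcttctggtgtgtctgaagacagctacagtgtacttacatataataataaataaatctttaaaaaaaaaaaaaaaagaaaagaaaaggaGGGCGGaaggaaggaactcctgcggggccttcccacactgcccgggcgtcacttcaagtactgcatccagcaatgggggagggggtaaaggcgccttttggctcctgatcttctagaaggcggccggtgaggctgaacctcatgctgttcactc
G0s2: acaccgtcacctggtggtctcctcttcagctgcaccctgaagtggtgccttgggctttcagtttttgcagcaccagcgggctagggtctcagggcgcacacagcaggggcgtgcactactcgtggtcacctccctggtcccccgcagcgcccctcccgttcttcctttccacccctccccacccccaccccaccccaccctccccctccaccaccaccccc

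In 4 of the 5 genes of triglyceride assembly the HFD samples lay further apart, on the log2 scale, than the means of the diets. Dgat2, which adds the last acyl chain, had 22.9 and 23.8 TPM in ND, with 36.9 in HFD replicate 1 against 14.8 in replicate 2, so that its mean change was 0.0074 (SE 0.49, adjusted p = 0.994). Kept as the only HFD sample, replicate 2 gave Dgat2 a change of -0.62, while replicate 1 gave 0.64. Such a fit holds no spread between HFD samples, so only the size is given. Dgat1, the other enzyme of this reaction, showed the opposite order of the HFD samples, with 44.1 and 42.9 TPM in ND, 22.4 in HFD replicate 1 and 36.9 in replicate 2 (-0.58, SE 0.27, adjusted p = 0.213). Set singly against the ND samples, HFD replicate 2 put Dgat1 at -0.23 and HFD replicate 1 put it at -0.93, again with no spread between HFD samples. Lpin1 was 4.8 and 5.1 TPM in ND and 7.1 and 4.2 in HFD, and Agpat2 was 32.7 and 33.4 in ND and 37.2 and 28.1 in HFD. Gpam, the mitochondrial acyltransferase that starts the pathway, stayed between 1.8 and 2.2 TPM.

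The changes of the mitochondrial oxidation genes ran from -0.11 to 1.23 on the log2 scale. The highest was that of Acot1, whose protein is cytosolic. Without Acot1 and the carnitine entry genes Cpt1a, Slc25a20 and Cpt2, the changes of 13 genes reached 1.04, with 3 called higher. In 16 of the 17 genes of the step both HFD samples lay above both ND samples. Of the 17, 11 passed the test in the higher direction, 4 were called and none passed in the lower direction. Among all genes, 34.1% had both HFD samples above both ND samples, 13.2% passed in the higher direction and 8.08% were called higher. The median log2 fold change was 0.37, and the summed TPM was 1249 and 1288 in ND and 1768 and 1775 in HFD, a ratio of 1.40. The pooled SD between samples of a diet was 0.071 on the log2 scale for these genes, compared with 0.27 for the droplet genes.

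Entry into mitochondria runs through carnitine. Cpt1a, the outer membrane transferase that limits the rate of entry, had 34.9 and 37.1 TPM in ND and 45.4 and 43.0 in HFD (0.29, adjusted p = 0.0543). Slc25a20, the carrier across the inner membrane, had 68.9 and 74.8 TPM in ND and 94.3 and 112.3 in HFD (0.51, adjusted p = 0.0538). Neither passed, although the diets did not overlap, as in 66.9% of all genes. Cpt2, which releases the acyl-CoA inside, rose from 19.7 and 19.9 TPM to 31.4 and 27.8, by 0.55 (SE 0.084, adjusted p = 0.0271).

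The first oxidation of each round is made by acyl-CoA dehydrogenases of differing chain length. Acadl, the long-chain form, rose from 115.5 and 120.3 TPM to 196.5 and 196.8, by 0.73 (SE 0.042, adjusted p = 0.00638), and was the only one of the 4 dehydrogenases called. Acadm (0.37) and Acads (0.39), the medium- and short-chain forms, passed the test, and Acadvl, the very long-chain form, did not (0.23, adjusted p = 0.0810). The ratio of Acadl to Acadm, in TPM, was 1.15 and 1.14 in ND and 1.52 and 1.44 in HFD.

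Hadha and Hadhb encode the alpha and beta subunits of the mitochondrial trifunctional protein, which carries out the remaining reactions on long chains. Hadha rose from 138.8 and 144.1 TPM to 299.7 and 285.9, by 1.04 (SE 0.048, adjusted p = 0.00530). Hadhb rose from 16.6 and 17.8 TPM to 33.8 and 31.6, by 0.89 (SE 0.074, adjusted p = 0.0103). The ratio of Hadha to Hadhb, in TPM, moved little, from 8.36 and 8.10 in ND to 8.87 and 9.05 in HFD. Exons of Hadha overlap those of Garem2 on the opposite strand.

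Both genes lie head to head on chromosome 5, Hadha on the minus strand (chr5:30118304-30155162) and Hadhb on the plus strand (chr5:30155248-30184593). They are separated by 272 bases in RefSeq and by 85 in GENCODE vM21. Since the pair rose together, the 85 bases between the GENCODE transcripts (chr5:30155163-30155247, GRCm38.p6, plus strand, 5′ to 3′) are shown, with capitals for the GC box GGGCGG on either strand, of which there are 2.
Hadha to Hadhb: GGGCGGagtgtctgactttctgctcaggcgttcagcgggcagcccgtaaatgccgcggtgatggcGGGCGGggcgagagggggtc

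In the 250 bases before the RefSeq start, GGGCGG on either strand was found in 28 of the 41 members that have a window in the table, compared with 32.7% of all 32851 windows. The cores ACGTG and GCGTG of hypoxia response elements, searched on both strands, were found in 9 and 23 of the 41 (16.6% and 28.2% of all windows), and the exact direct repeat of PPAR response elements in none (0.0335% of all windows). These windows start from the RefSeq transcript and can reach past the stretches printed here. A match describes the letters in the window only. The 32851 windows were not limited to the 16849 genes tested, so a match cannot be called particular to the members.

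Further enzymes of the cycle had smaller fold changes than the trifunctional protein genes. Hadh (0.30) and Acaa2 (0.40), the dehydrogenase and thiolase of shorter chains, passed the test. Among the electron transfer genes, which hand the electrons on to the respiratory chain, Etfa (0.37) and Etfdh (0.33) passed and Etfb (0.17, adjusted p = 0.0670) did not. Enzymes for unsaturated acids did not pass: Decr1 had a change of 0.32 (adjusted p = 0.0521), and Eci1, at 52.1 TPM in each ND sample and 46.0 and 50.3 in HFD, was the gene of this step with lower HFD values (-0.11).

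Acot1, a cytosolic thioesterase that frees fatty acids from coenzyme A, rose from 5.2 and 5.0 TPM to 14.8 and 11.9, by 1.23 (SE 0.13, adjusted p = 0.0156). It has near-identical paralogs, so reads may have been split among them. Its neighbour Acot2 passed with a smaller change (0.34, adjusted p = 0.0451), and the ratio of Acot1 to Acot2, in TPM, was 0.354 and 0.318 in ND and 0.751 and 0.617 in HFD. The ratio of the summed TPM of oxidation to that of synthesis was 3.73 and 3.59 in ND and 4.95 and 4.73 in HFD.

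**Figure D4:**
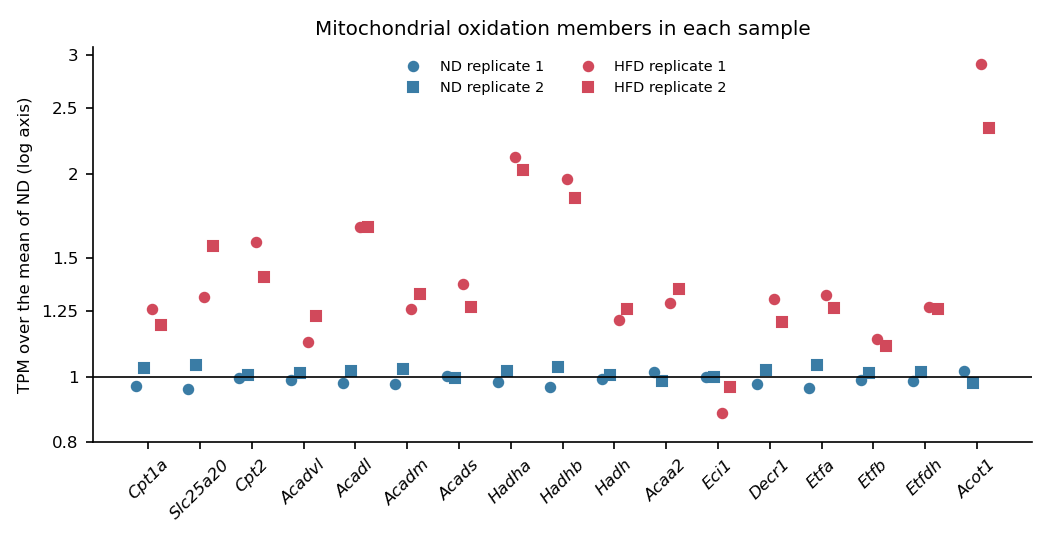
TPM of the 17 mitochondrial oxidation members in each sample, divided by the mean of the ND samples (log axis), from carnitine entry on the left to Acot1 on the right. The HFD symbols lie above the ND symbols in 16 genes and below them in Eci1.

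None of the 4 regulators was called by limma, and neither of the 2 tested had an unadjusted p under 0.05. Ppara, the nuclear receptor that drives oxidation genes in liver, and Ppargc1a, a coactivator of mitochondrial genes, were listed at 0 in all 4 samples, which means under 0.05 TPM, or about 2.70 to 5.43 reads. Ppard, a related receptor found in many tissues, had 41.5 and 41.3 TPM in ND and 28.9 and 37.0 in HFD (-0.33, SE 0.14, adjusted p = 0.181). Ppargc1b, a coactivator akin to Ppargc1a, had 4.0 and 4.3 TPM in ND and 3.7 and 2.9 in HFD (-0.27, adjusted p = 0.250). Both HFD values of each lay below both ND values, without passing the test. The diets did not overlap, in either direction, in 66.9% of all genes.

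The other genes of the same pathways were read from lists of 124 genes, of which 102 were tested. Of these, 11 were called higher and 7 lower (17.6%), against 18.4% of all genes tested, and 10.8% were called higher, against 8.08%. By the adjusted p alone 22.5% passed in the higher direction, against 13.2% of all genes, and the median log2 fold change was 0.15.

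Among 11 other uptake genes tested, 5 were called higher (45.5%, against 8.08% of all genes) and 1 lower. Fabp5, a fatty acid carrier of the cytosol, rose from 55.4 and 59.2 TPM to 308.1 and 314.0 (2.42), and Cd36, a scavenger receptor for fatty acids and oxidized lipoproteins, from 131.3 and 137.1 to 308.4 and 314.0 (1.21). Slc27a3 fell from 11.7 and 11.8 TPM to 2.4 and 2.6 (-1.87), opposite to Slc27a1. Among 15 other synthesis genes, 3 were called lower (20.0%, against 10.3% of all genes) and none higher. Among those 3, Scd1, the stearoyl-CoA desaturase that shares its reaction with Scd2, had 60.9 and 62.4 TPM in ND and 25.2 and 33.5 in HFD (-1.06).

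Lipa, the lysosomal acid lipase that breaks down the lipid of engulfed particles, had the largest change among 18 other droplet and lipolysis genes, from 175.8 and 185.3 TPM to 753.3 and 761.7 (2.06). Of 22 other mitochondrial oxidation genes, 1 was called (4.55%, against 18.4% of all genes), the ketone body thiolase Acat1 (-0.67). None of the 22 was called higher, and 13.6% passed in the higher direction, against 13.2% of all genes. Their median log2 fold change was 0.15. Of 19 peroxisomal genes, 2 were called higher (10.5%, against 8.08% of all genes), Abcd3 (1.07), a transporter of the peroxisomal membrane, and Acot4 (1.08). Among 17 other regulators, Nr1h3 (LXR alpha, a sterol sensor) rose from 4.7 and 4.9 TPM to 21.2 and 20.9 (1.93), Pparg rose from 3.7 and 3.5 to 9.7 and 9.2 (1.18), and Rxra, the partner of both, fell (-0.66).

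Markers of cell types moved with these genes. For the marker counts that follow, 8.08% of all genes tested were called higher and 10.3% lower. The 10 markers of lipid-associated macrophages that are no members were all called higher, and their summed TPM went from 2839 and 2856 in ND to 13676 and 14847 in HFD. All 8 markers of resident macrophages were called lower, with sums of 6436 and 6495 in ND and 2299 and 1974 in HFD. The sum of 8 general macrophage markers was 12299.9 and 12056 in ND and 11283 and 12384 in HFD. Lpl and Plin2 are themselves often listed as markers of lipid-associated macrophages, and the part of these cells in the change of the members was not tested.

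Markers of adipocytes were read as well, since these cells express many of the members. Of 14 adipocyte markers, 11 were tested, 5 were called lower and 1 (Lep) higher, and their summed TPM was 196 and 197 in ND and 84.6 and 56.4 in HFD. Adipoq was 12.4 and 11.3 TPM in ND and 8.6 and 4.2 in HFD, Plin1, the coat protein of adipocyte droplets, was 1.4 and 1.6 TPM in ND and 2.4 in each HFD sample (0.44, adjusted p = 0.0602), and Acvr1c was listed at 0 in all samples. Car3 alone made up 100.7 and 101.6 TPM of the ND sums and 28.1 and 19.7 of the HFD sums. The part of adipocyte RNA in the values of the members was not tested.

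Fibroblast and preadipocyte markers summed to 549 and 589 TPM in ND and to 2866 and 5747 in HFD, with 4 of 8 called higher. T cell markers fell in sum from 137 and 147 TPM to 17.0 and 31.8, with all 6 tested called lower, and 5 of 6 neutrophil markers were called lower. NK cell and mast cell markers were called lower in 6 of 6 genes each, B cell markers in 5 of 6, dendritic cell markers in 3 of 7, monocyte markers in 3 of 6, eosinophil markers in 3 of 5 and markers of epididymal epithelium in 5 of 6. The part of these cells in the members' values was not tested.

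**Figure D5:**
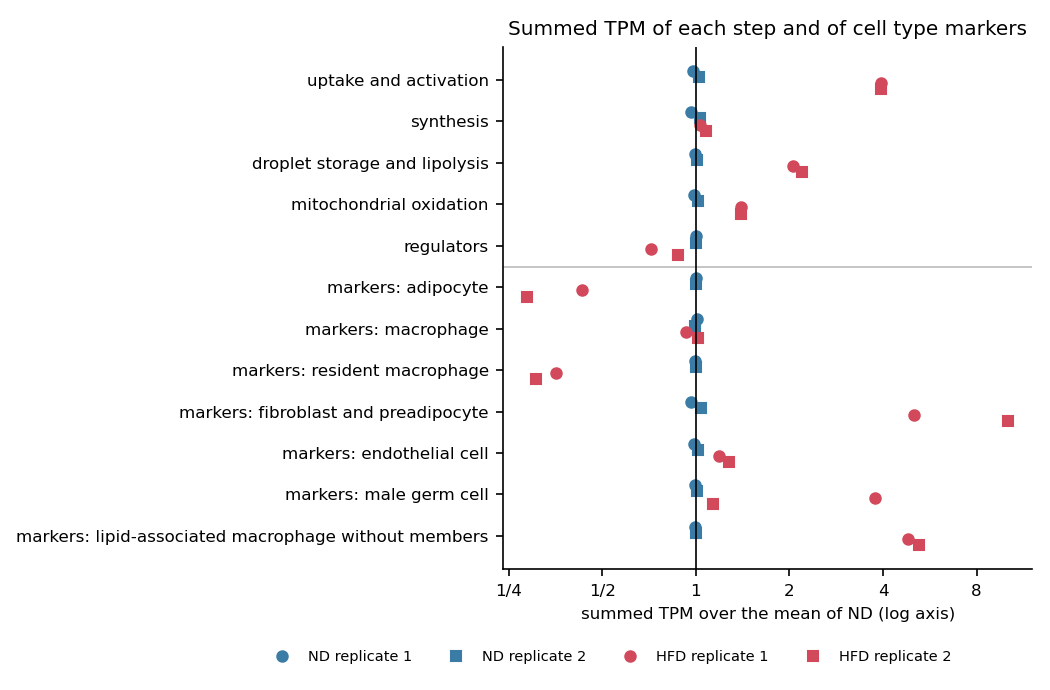
Summed TPM of the members of each step (above the line) and of cell type marker lists (below it) in each sample, divided by the mean of the ND samples, on a log axis. Uptake and activation (3163 TPM in each HFD sample, 165 and 155 without Lpl) and lipid-associated macrophage markers lie to the right of ND, adipocyte and resident macrophage markers to the left, and the HFD samples lie furthest apart in male germ cell markers.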

How the data were processed

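RNA was measured by stranded mRNA sequencing in 4 samples of CD45+ cells. The authors trimmed reads with Trim Galore 0.4.2 and cutadapt 1.9.1, aligned them to mm10 with STAR 2.6.1e, removed duplicate reads with Sambamba, counted them per gene with featureCounts 1.6.2 and deposited TPM printed to 1 decimal. The annotation and the use of strand are not given in the sources used here.

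The tables were joined by gene symbol. Genes with at least 1 TPM in at least 2 samples (16849) were compared as log2(TPM + 1) with limma 3.58.1 in R 4.3.3 (lmFit, then eBayes with a variance trend) and Benjamini-Hochberg adjustment over all of them, and members were read from that fit. The steps were tested on simulated data. The members and gene lists were chosen with earlier results of these data known. All members are named, and other genes come from the pathway and marker lists: per list at most 5 called genes with the largest changes, plus defining markers. Members of their step's best known enzymes and members called have their values printed. TPM hold no raw counts, so count models were left out. Read numbers use GENCODE vM21 exon lengths and are approximate, and they stand for reads left after duplicate removal. The TPM worth of 1 read was estimated from 192 to 231 microRNA genes. Of the list symbols, 2 were not found by name. Alternatives were other pseudocounts (0.1 and 5), filters, scalings, fold limits, a replicate block and each sample left out. The values of 1 gene of the pathway lists are not reported here. Figures were drawn with matplotlib 3.10.9.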

Additional observations from a re-analysis of the deposited data

How the results depend on the processing

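The direction of each called member held in the main setting and in all alternatives run. Lpl, Slc27a1, Plin2, Hilpda, Acadl and Hadha were called in 9 of 9 settings that kept all samples and the fold limit of 1.5. Acadl was not called at a fold limit of 2. With 2 samples per diet an exact permutation test has a smallest two-sided p of 2 in 6 arrangements, so calls rest on limma's pooled spread. TPM printed to 1 decimal limits genes near 0.1 TPM.

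Of 12 members called (11 higher, 1 lower), a fold limit of 2 left 7 (6 higher), and no fold limit gave 24 (22 higher, 2 lower). The single lower call, G0s2, was lost in limma with no filter (-1.25, adjusted p = 0.0968) and without a variance trend (-1.25, adjusted p = 0.0542). It was also lost under median-ratio scaling (-1.28, adjusted p = 0.0608). Leaving out each sample in turn gave 0 to 17 calls, 0 to 15 higher and 0 to 2 lower; the 0 came without ND replicate 1 or without ND replicate 2, where no gene of the table was called and the smallest adjusted p of a member was 0.167 and 0.161. Each such fit leaves 1 diet with 1 sample, so the spread comes from the other diet alone. Without HFD replicate 1 the changes of G0s2 and Abhd5 were -0.94 and 0.81. Dgat2 stood at -0.62 without HFD replicate 1 and at 0.64 without HFD replicate 2.

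Acsl3 lost its call with a pseudocount of 5, Abhd5 with no filter, and Plin3 under quantile normalization and rescaling without the 50 highest genes. Over all genes, 3097 calls became 2015 with a pseudocount of 5 and 1604 at a fold limit of 2.

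The deviations of same-numbered samples from their diet means had a correlation of -0.015 across genes. With only 2 samples per diet, this value cannot show whether same-numbered samples were handled together. The replicate block gave 6 member calls, all higher, and 0 lower, and 812 over all genes. Acsl3 (adjusted p = 0.0827), Plin3 (0.0550), Abhd5 (0.0926), G0s2 (0.0674), Hadhb (0.0589) and Acot1 (0.0594) were not called with it, at the fold changes they have without it.

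Under quantile normalization the median of synthesis was -0.084 and that of mitochondrial oxidation 0.26. That of uptake and activation was 0.33 to 0.67 as samples were left out. Scd2 turned to -0.0023, -0.084 and -0.031, and Dgat2 to -0.025, -0.068 and -0.053, under median-ratio scaling, quantile normalization and rescaling without the 50 highest genes, and neither passed. With samples left out, sign also changed for Acly (-0.044 to 0.043), Acaca (-7.5e-04 to 0.15), Scd2 (-0.042 to 0.10), Gpam (-0.023 to 0.17), Agpat2 (-0.23 to 0.17), Lpin1 (-0.19 to 0.45) and Dgat2 (-0.62 to 0.64). The causes were not tested.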
